A study of Mus musculus with 16 samples.

Results

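The genes described here are 10 markers of macrophages and leukocytes, C1qa, C1qb, C1qc, Lyz2, Cd68, Csf1r, Adgre1, Mrc1, Ptprc and Cd163. They were taken by their gene symbol from a count table of 46078 genes, and all 10 were present and passed the filter on low counts, which left 14897 genes for testing. The table holds 16 mouse RNA-seq libraries whose labels give a cultured line of juxtaglomerular (JG) cells, which make renin in the wall of the afferent arteriole of the kidney. By the study's account the line, Ren1c-YFP, was engineered so that the renin promoter drives yellow fluorescent protein, and all 4 groups carry this reporter. Cultures were transfected with a microRNA precursor that has no mammalian counterpart (control) or with miR-106b, and were harvested after 48 h. In 4 control and 4 miR-106b cultures, polyadenylated (polyA) RNA was sequenced. In another 4 and 4 cultures, the RNA that came down with an antibody to Ago2 was sequenced (Ago2-IP). Ago2 is the protein of the RNA-induced silencing complex that holds a microRNA together with its target RNA.

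Macrophages are the tissue-resident phagocytes of the kidney, the heart and most other organs, and they depend on signalling through the CSF1 receptor for survival. They are the main source of C1q, the recognition part of the first complement component, which is built from A, B and C chains in equal number. Lyz2 encodes lysozyme, an enzyme that cuts bacterial cell walls, and Cd68 a lysosomal membrane protein of phagocytes. Adgre1 encodes the F4/80 surface antigen of mouse macrophages, Mrc1 the mannose receptor CD206, and Cd163 the receptor that takes up haemoglobin bound to haptoglobin. Ptprc encodes CD45, a phosphatase on the surface of nearly all cells of blood origin, and is the only one of the 10 that is also a general marker of lymphocytes. The labels name JG cells and no other cell type.

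The sequence of miR-106b-5p is shown first, since it is the microRNA that was transfected. It lies at chr5:138165787-138165807 on the minus strand of GRCm38 in the RefSeq annotation, and its seed, bases 2 to 8, is in capitals.
mmu-miR-106b-5p: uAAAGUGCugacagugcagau
The letters that pair with the full seed, GCACTTT, were searched in the annotated 3′UTRs of the sense strand, with the longest 3′UTR of a coding transcript taken for each gene. Among the members, C1qa and Adgre1 held 1 such match each and the other 8 held none, whereas 14.8% of 13222 tested genes with a 3′UTR held at least 1. The matches are shown with 9 flanking bases on each side and the pairing letters in capitals, at chr4:136895949-136895955 on the minus strand for C1qa and at chr17:57483433-57483439 on the plus strand for Adgre1.
C1qa: tttctttaaGCACTTTctggaataa
Adgre1: gtttcctatGCACTTTcttgtggtg
The shorter form of the match, CACTTTA, which pairs with bases 2 to 7 and ends in an A, was absent from all 10 3′UTRs. With either form, 22.2% of the tested genes held a match. The 3′UTRs of the members ran from 158 bases (Cd68) to 1669 bases (Csf1r), against a median of 1222 bases over the tested genes, and a match says only that these letters are present.

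The promoters of the myeloid members were read for the letters GAGGAA on either strand, the purine-rich core (PU box) bound by the myeloid factor PU.1. RefSeq windows of 300 bases, from 250 before to 50 after the start of transcription, were found for 7 of the 10 members, and C1qa, Csf1r and Adgre1 had no entry. Of these 7, C1qb, C1qc, Cd68, Mrc1 and Ptprc held the letters in at least 1 window. Counted by window, 5 of the 8 windows of these genes held them (Ptprc has a second window without them), against 28.3% of 32851 promoters of the same length in the whole table. For C1qb, C1qc, Mrc1 and Ptprc the match nearest to the start site is shown, at its position relative to the start, with the letters in capitals and 9 flanking bases.
C1qb, position -30 (chr4:136886225-136886230, minus strand): gcaggatggGAGGAAcagaggggt
C1qc, position -193 (chr4:136893102-136893107, plus strand): tgccaaaatGAGGAAgtgtctgcc
Mrc1, position -35 (chr2:14229379-14229384, minus strand): aggaggacaGAGGAAgctgtccct
Ptprc, position -158 (chr1:138175458-138175463, minus strand): tttcctttaGAGGAAaattgagac
Cd68 held the letters at positions -225 and 29, and Lyz2 and Cd163 did not hold them in this window. No binding of PU.1 was measured, and its gene Spi1 is given with the other myeloid genes.

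C1qa, C1qb and C1qc lie beside each other on chromosome 4 of GRCm38, between 136880129 and 136898803, all on the minus strand and each in 3 exon blocks. Lyz2 lies at chr10:117277334-117282274, Cd68 at chr11:69664213-69666153, Adgre1 at chr17:57358686-57483529, Mrc1 at chr2:14229392-14332057, Ptprc at chr1:138062861-138175708 and Cd163 at chr6:124304651-124330527. No 50-base window of C1qa, C1qb, C1qc, Cd68, Adgre1 or Mrc1 occurred in a transcript of another gene. Lyz2 shared 15.4% of its windows with the neighbouring lysozyme gene Lyz1, which had 0 to 12 counts in a library, so a part of the counts on either gene is uncertain. Csf1r on chromosome 18 overlaps 873 exon bases of Hmgxb3 on the opposite strand. The libraries do not keep strand, so reads from that stretch cannot be assigned, and Hmgxb3 had 91 to 587 counts in a library.

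The gene counts of a library summed to 2579086 at least and 9459585 at most. The polyA control libraries were the deepest (5692958 to 9459585 counts), and the polyA miR-106b libraries had 2815272 to 4554848. The Ago2-IP libraries had 3501909 to 4616424 counts with the control precursor and 2579086 to 3450269 with miR-106b. Levels are given as counts per 1000000 counts of the library (CPM) with their SD over 4 cultures. A count of 0 allows up to 3 counts, which is 0.317 to 1.16 CPM depending on the library, and such limits cover counting error only, since without molecular identifiers 1 molecule may be read more than once. Ren1, the renin gene that defines JG cells, had 0 counts in all 16 libraries, which allows at most 0.0425 CPM over the 70668386 counts of the series. The cardiac myosin gene Myh6 averaged 10019 to 39469 CPM over the 4 groups. Both go against the labelled cell type, whereas the study reports renin mRNA by RT-qPCR and renin-positive cells in its JG cell cultures. The smooth muscle gene Acta2 was present in all 4 groups, at mean levels of 252 to 757 CPM. The kidney transcription factors Pax8 and Pax2, the kidney cadherin Cdh16 and Foxd1, a factor of the renal stroma from which renin cells arise, were at means of 51.3 to 180 CPM in the polyA groups and of 2.25 to 7.06 CPM in the Ago2-IP groups, so on these genes the polyA and the Ago2-IP libraries differed. Which cells the RNA came from was not tested.

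In polyA RNA every member was higher with miR-106b, by 0.97 to 1.25 on the log2 scale (median 1.19, or 1.96- to 2.37-fold), while the median of all tested genes was -0.05. By edgeR's quasi-likelihood test with TMM scaling 10 of 10 members passed an adjusted p of 0.05 as higher, against 19% of all genes tested, whereas 0 of 10 passed and 7 had the opposite sign when libraries were scaled to cardiac muscle genes, as described at the end. The C1q chains, lysozyme, Cd68 and Csf1r were the abundant members and the most precisely measured. In Ago2-IP RNA the same transfection moved none of the 10 past the threshold, and their median change was -0.02. Because these are bulk cultures, more cells of a type and more RNA per cell cannot be told apart.

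C1qa, the A chain of C1q, was at 87.9, 63.9, 69.7 and 85.02 CPM in polyA control replicates 1 to 4 and at 113, 199.8, 165 and 205 CPM in polyA miR-106b replicates 1 to 4. The lowest miR-106b library was above the highest control library, and replicate 1 was the lowest of the miR-106b group. The means were 76.6 ± 11.7 and 170 ± 42.2 CPM (SD, n = 4 each), and the log2 difference was 1.18 with an SE of 0.18 (adjusted p = 0.000682). C1qb, the B chain, went from 79.8 ± 14.9 to 186 ± 47.5 CPM (log2 difference 1.25, SE 0.19, adjusted p = 0.000682). C1qc, the C chain, went from 84.6 ± 15.9 to 188 ± 48.4 CPM (log2 fold change 1.18, SE 0.19, adjusted p = 0.000773). The changes of the chains, which are translated from separate mRNAs and assembled in equal number, lay within 1 SE of one another.

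Lyz2 was at 70.6, 48.7, 54.1 and 72.4 CPM in the polyA control replicates and at 103, 167, 128 and 157 CPM with miR-106b. Its groups did not overlap, and its log2 level rose by 1.201 with an SE of 0.18 (adjusted p = 0.000682). Csf1r, the receptor for CSF1 and IL-34, was at 52.8, 34.9, 43.8 and 49.7 CPM in control and at 82.1, 122, 90.7 and 121 CPM with miR-106b. It rose by 1.23 (SE 0.17, adjusted p = 0.000682), again with no overlap. Cd68 lay between 14.5 and 23.5 CPM in control and between 30.3 and 49.1 CPM with miR-106b, and rose by 1.23 (SE 0.19, adjusted p = 0.000682). In these 6 abundant genes the miR-106b libraries all lay above the control libraries, a separation seen in this direction in 16.5% of all genes tested.

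The other 4 members were at under 30 CPM in all polyA libraries, and their groups touched or overlapped. Mrc1 was at 10.6, 6.03, 7.43 and 11.1 CPM in control and at 10.98, 21, 19.8 and 27.4 CPM with miR-106b (log2 fold change 1.19, SE 0.28, adjusted p = 0.00465). Only miR-106b replicate 1 fell below the highest control library. Ptprc was at 4.44, 2.96, 2.58 and 4.04 CPM in control and at 4.17, 7.87, 8.90 and 10.7 CPM with miR-106b (log2 fold change 1.17, SE 0.31, adjusted p = 0.00897). Here too replicate 1 of the miR-106b group was the library inside the range of the control group.

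Adgre1 was at 6.19, 5.39, 3.94 and 7.38 CPM in control and at 6.37, 17.1, 7.18 and 14.2 CPM with miR-106b. Replicates 1 and 3 of the miR-106b group lay within the control range, and the log2 rise was 0.99 with an SE of 0.33 (adjusted p = 0.0291). The adjusted p was 0.0547 without polyA control replicate 2, 0.0623 without polyA control replicate 3, 0.126 without polyA miR-106b replicate 2 and 0.0885 without polyA miR-106b replicate 4. Cd163 was at 5.08, 2.85, 4.24 and 8.43 CPM in control and at 5.49, 12.3, 7.47 and 14.2 CPM with miR-106b. Replicates 1 and 3 were again inside the control range, and the rise was 0.97 (SE 0.37, adjusted p = 0.0491). Its call was lost without polyA control replicates 1 (adjusted p = 0.0678), 2 (0.104) or 3 (0.0876), without polyA miR-106b replicates 2 (0.135) or 4 (0.159), and with scaling to library size alone (0.0512). Both genes rested on 25 to 65 counts in a polyA library.

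**Figure D1:**
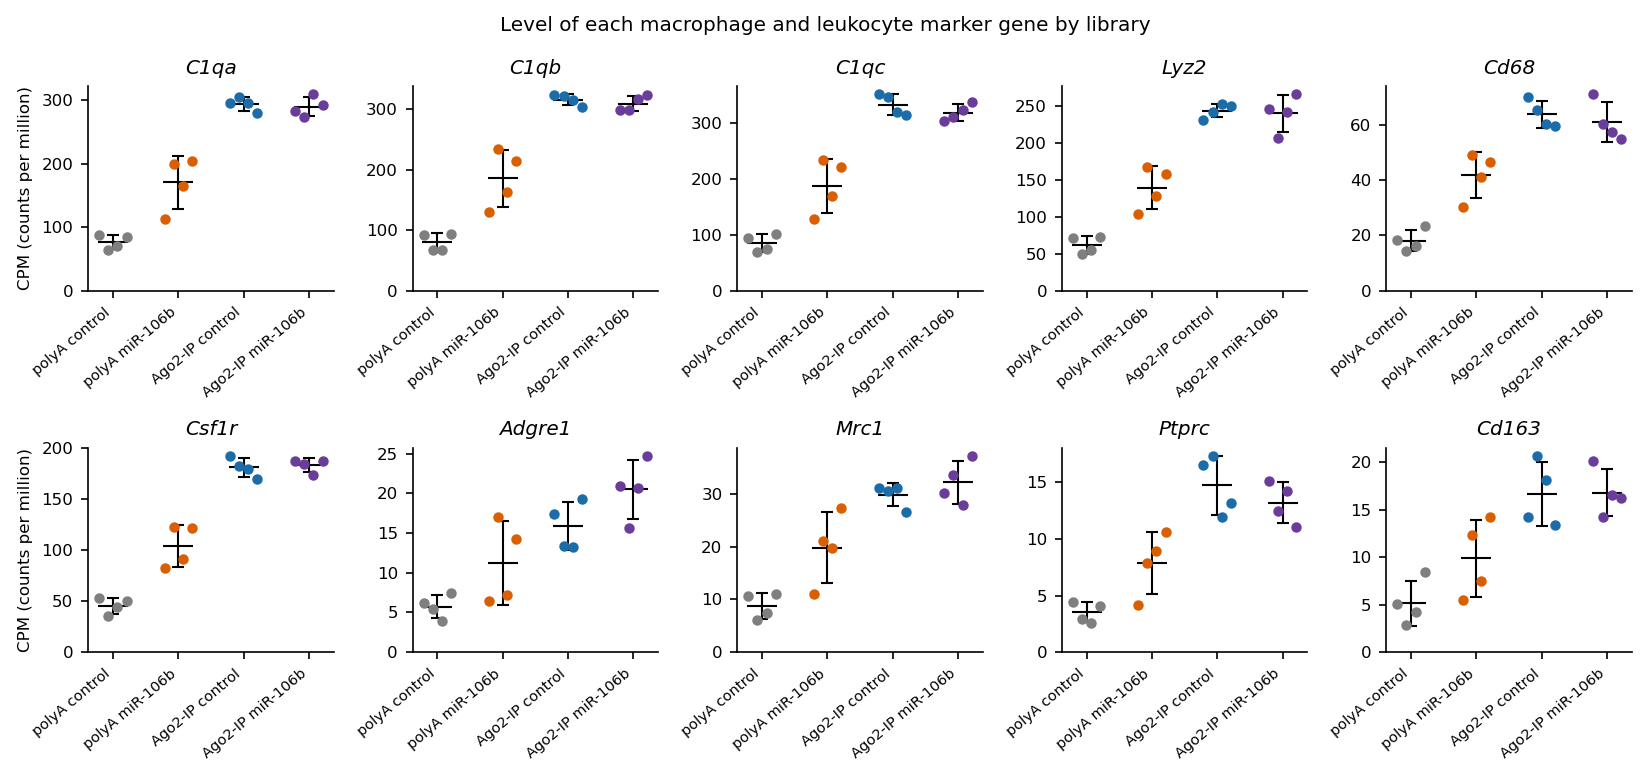
CPM of each of the 10 marker genes in the 16 libraries, by group, with points for the libraries in the order of their replicate number and a bar for the mean ± SD (n = 4); each panel has its own linear axis from 0. In polyA RNA the miR-106b libraries lie above the control libraries for C1qa, C1qb, C1qc, Lyz2, Cd68 and Csf1r, and the Ago2-IP groups overlap each other for all 10.

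The rise in CPM stood beside a fall in depth. The counts on the members themselves changed little between the polyA groups, since the mean count with miR-106b was 1.01 times (Adgre1) to 1.22 times (C1qb) that in control, and no member had counts that separated the groups. C1qa, for example, had 554, 604, 460 and 484 counts in the polyA control libraries and 515, 761, 573 and 576 in the polyA miR-106b libraries. The summed counts of the 10 genes were 2787, 2973, 2263 and 2600 in polyA control and 2796, 4049, 2786 and 2904 in polyA miR-106b. Over the 8 polyA libraries the total counts spanned 3.36-fold and the members' summed counts 1.79-fold. As CPM, the members summed to 314 to 457 in polyA control and 614 to 1063 in polyA miR-106b. The part of depth in the rise was not tested.

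**Figure D2:**
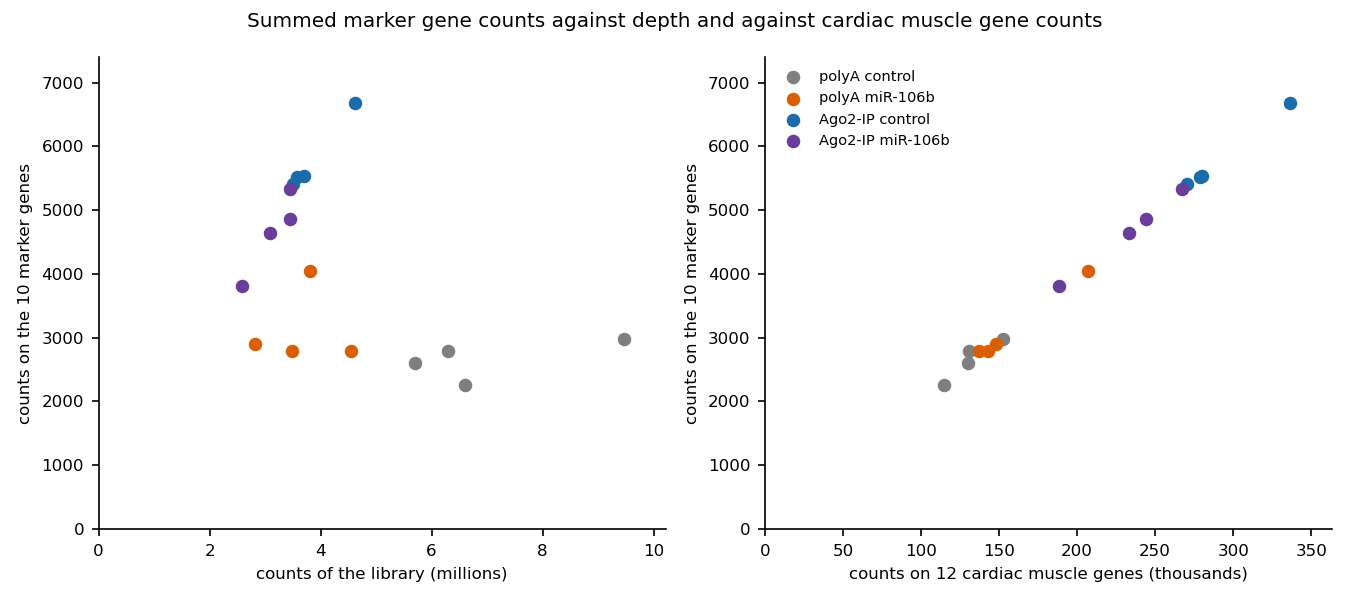
Summed counts on the 10 marker genes in each of the 16 libraries against the total counts of the library in units of 1000000 (left) and against the counts on a list of 12 cardiac muscle genes in units of 1000 (right), with groups by colour and all axes from 0. On the left the polyA libraries stay between 2263 and 4049 marker counts while their depth runs from 2815272 to 9459585, and on the right all 16 libraries lie close to 1 line, at 19.5 to 21.4 marker counts per 1000 cardiac counts.

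In Ago2-IP RNA the members hardly differed between the transfections. C1qa was at 295, 305, 296 and 280 CPM in Ago2-IP control and at 283, 274, 310 and 293 CPM in Ago2-IP miR-106b, and the groups overlapped. The log2 fold change was -0.02, with a 95% interval of -0.12 to 0.08. The changes of C1qb (-0.03), C1qc (-0.06), Lyz2 (-0.02), Cd68 (-0.07) and Csf1r (0.02) were of the same size, and the interval of Csf1r ran from -0.09 to 0.13. Mrc1 (0.12), Ptprc (-0.16) and Cd163 (0.01) had wider intervals, from -0.53 to 0.21 for Ptprc. Of the 10, 0 were called by edgeR's test and 0 by DESeq2's Wald test, as were 0% of all genes by edgeR. DESeq2's Wald test called 2 genes in all, and 827 genes had an unadjusted p under 0.05.

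Adgre1 was the 1 of 10 members with an unadjusted p under 0.05 in Ago2-IP RNA, as were 827 of all 14897 genes tested. It was at 17.4, 13.4, 13.3 and 19.3 CPM in control and at 20.9, 15.7, 20.7 and 24.7 CPM with miR-106b, so the groups overlapped. The log2 difference was 0.36 with a 95% interval of 0.03 to 0.70, and the adjusted p in edgeR's test was 0.855. C1qa, the other member whose 3′UTR holds the seed match printed above, differed by -0.02. A part of the seed match in these values was not tested.

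**Figure D3:**
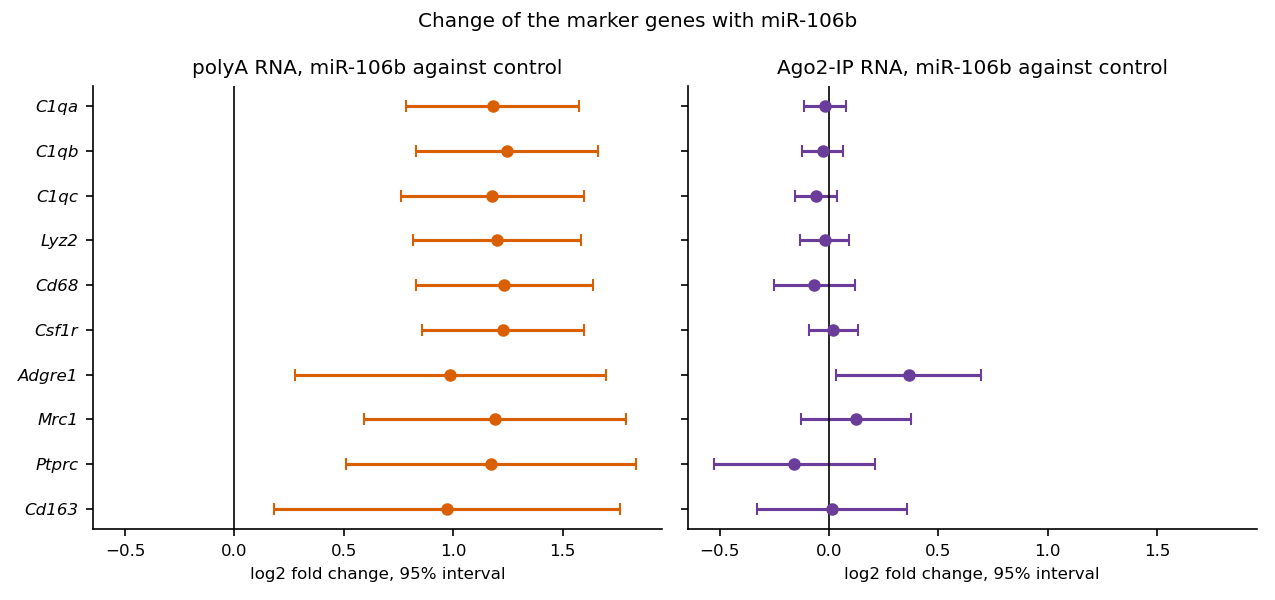
Log2 fold change of each of the 10 marker genes with miR-106b against control, with its 95% interval from edgeR's fit, in polyA RNA (left) and in Ago2-IP RNA (right), on 1 scale. The polyA changes lie between 0.97 and 1.25 and the Ago2-IP changes between -0.16 and 0.36, with the widest intervals for Cd163, Adgre1 and Ptprc in polyA RNA. With scaling to the cardiac genes 7 of the polyA changes turn in sign.

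The study used the Ago2:polyA ratio and its change with miR-106b to look for RNAs drawn to Ago2. For the members this ratio moved the other way. In the fit of all 16 libraries the interaction of RNA kind and transfection was negative for all 10, from -1.47 (Ptprc) to -0.76 (Adgre1), with a median of -1.36 against -0.07 over all genes tested. By the adjusted p, 9 of 10 were lower, against 19.7% of all genes, whereas with scaling to the cardiac genes 0 of 10 were called and 7 of 10 turned in sign. For C1qa the log2 ratio fell from 2.26 in control to 0.92 with miR-106b, a difference of -1.34 (SE 0.20, adjusted p = 3.4e-05), and for Csf1r from 2.32 to 0.96 (difference -1.36, SE 0.18, adjusted p = 2.02e-05). For Ptprc the difference was -1.47 (SE 0.34, adjusted p = 0.00231). This interaction shares its libraries with the comparisons within each RNA kind.

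Adgre1 was the member not called. Its log2 ratio was 1.797 in control and 1.04 with miR-106b, and the difference of -0.76 had a 95% interval of -1.54 to 0.02 (adjusted p = 0.140). Without polyA miR-106b replicate 1, the library of that group with the lowest Adgre1 level, the difference was -0.97 and the adjusted p 0.0321. Without polyA miR-106b replicate 2 the difference of Adgre1 was -0.35, the smallest of the fits without 1 library. Cd163 was called with an adjusted p of 0.0478 (difference -1.11). It lost this call in 14 of 22 alternative settings, among them 11 of the 16 fits without 1 library, at adjusted p of 0.053 to 0.151. The call stood without polyA control replicate 4, polyA miR-106b replicates 1 or 3, Ago2-IP control replicate 4 or Ago2-IP miR-106b replicate 1, and was lost without any other library.

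The members were more abundant in Ago2-IP than in polyA RNA in both transfections. In control cells the difference ran from 1.797 (Adgre1) to 2.39 (Ptprc) on the log2 scale, with a median of 2.28 against -0.03 over all genes, and 10 of 10 were called higher, against 35.1% of all genes, whereas with scaling to the cardiac genes 1 was called, as lower, and 5 turned in sign. Lyz2, at 61.5 ± 11.8 CPM in polyA and 243 ± 9.29 CPM in Ago2-IP control libraries, differed by 2.31 (SE 0.15, adjusted p = 6.36e-12). Every Ago2-IP control library was above every polyA control library for all 10 members, as in 26.1% of all genes. With miR-106b the difference was smaller, from 0.70 (Cd68) to 1.04 (Adgre1) with a median of 0.92, and 10 of 10 were called higher, against 21.9% of all genes, whereas with scaling to the cardiac genes 0 were called and 3 turned in sign. Here 8 of 10 members had groups without overlap, against 13.9% of all genes, and the exceptions were Adgre1 and Cd163. Ago2-IP and polyA RNA came from separate cultures and were prepared differently, so the RNA kind, its preparation and the cell content of the cultures cannot be told apart. Markers of other cell types moved with the members in this comparison. In control, with TMM scaling, the cardiac list had a median of 2.29 (10 of 11 tested genes higher) and the endothelial list one of 2.23 (10 of 10 higher). With scaling to the cardiac list 9 of all 14897 genes were called higher and 12520 lower, so at most 9 of these calls could stand. The kidney tubule and podocyte list went the other way, with a median of -4.49 over the 4 of its 10 genes that were tested. With TMM scaling all 4 were lower, as were 5157 of all 14897 genes. The summed level of this list was 358 to 524 CPM in polyA control and 2.86 to 26.2 CPM in Ago2-IP control libraries. The part of these differences in the members' values was not tested.

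Levels can be compared between members only per length, as CPM per kilobase of the longest coding transcript. In polyA control libraries the C1q chains were the highest, at 73.7 ± 11.2 for C1qa, 73.3 ± 13.7 for C1qb and 70.3 ± 13.2 for C1qc, and the ranges of these neighbours overlapped. Lyz2 followed at 46.7 ± 8.98, then Cd68 at 14.7 ± 3.19 and Csf1r at 9.64 ± 1.68, each without overlap with the next. Adgre1 (1.77 ± 0.45), Mrc1 (1.64 ± 0.46), Cd163 (1.16 ± 0.53) and Ptprc (0.69 ± 0.17) came last, and the ranges of neighbours in this order overlapped. The first 3 places were held by the C1q chains in all 4 groups, followed by Lyz2, Cd68 and Csf1r in that order, and Ptprc was last in all 4. C1qb was first and C1qa second in polyA miR-106b and in both Ago2-IP groups, with overlapping ranges. In Ago2-IP control libraries the level was 290 ± 8.58 CPM per kilobase for C1qb and 2.91 ± 0.51 for Ptprc.

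The make-up of the members' counts varied over narrow ranges for the abundant members. C1qa made up 18.4% to 20.7% of the counts on the 10 genes in a library, C1qb 19.5% to 22.0% and C1qc 20.6% to 22.8%. Lyz2 made up 14.6% to 17.2%, Csf1r 10.9% to 13.4% and Cd68 3.55% to 5.17%. The 4 scarce members ranged from 0.68% (Ptprc, polyA miR-106b replicate 1) to 2.65% (Mrc1, polyA miR-106b replicate 4). Over all 64933 counts the share of C1qc was 21.7% and that of C1qa 19.5%. For 145 of the 160 shares (10 genes in 16 libraries) the 95% Wilson interval of the library held the share over all libraries, which is 90.6% of them. These intervals cover counting error only, and the share over all libraries includes the library itself, so this count is a description. All 16 libraries did so for C1qa, C1qb, C1qc and Ptprc, and 12 of 16 for Lyz2 and for Adgre1.

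**Figure D4:**
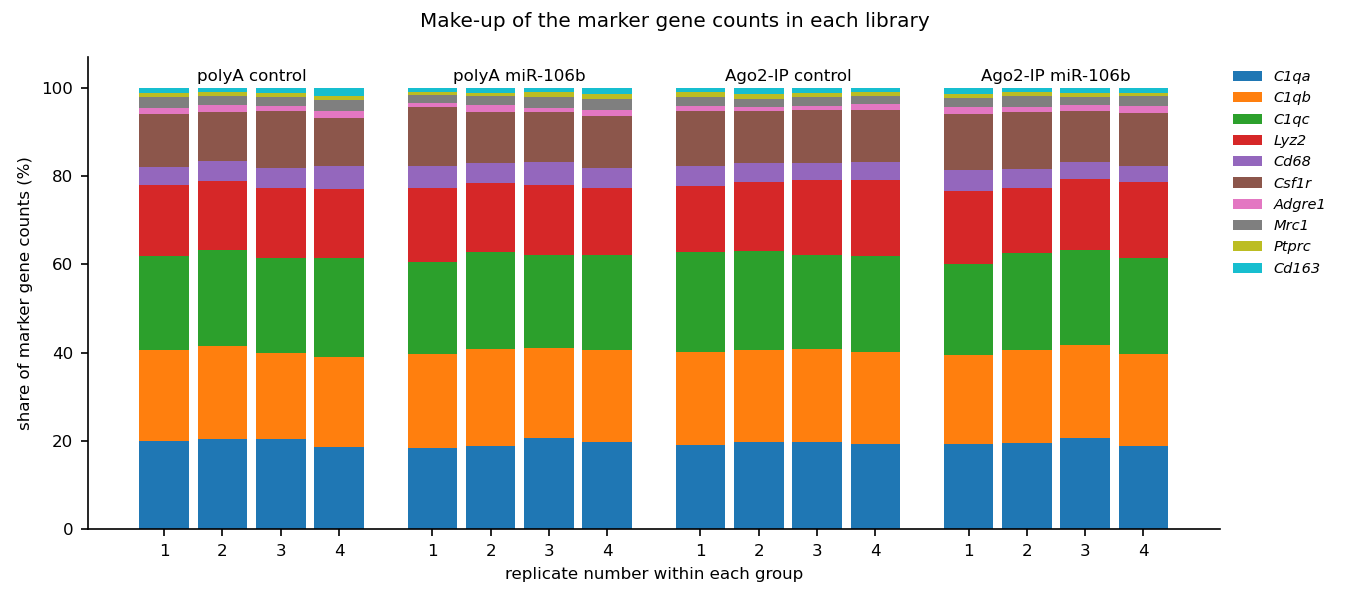
Share of each of the 10 marker genes in their summed counts, in percent, as stacked bars for the 16 libraries, ordered by group and replicate number. The bars look alike in all 4 groups, with C1qa, C1qb and C1qc each at 18.4% to 22.8% and Adgre1, Mrc1, Ptprc and Cd163 as thin bands at 0.68% to 2.65%.

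The members also moved together in log2 CPM. Between pairs of members Pearson's r was 0.91 to 0.999 over the 16 libraries and 0.85 to 0.998 over the 8 polyA libraries, where the libraries share their depth and group structure. The genes whose log2 CPM was most like the mean of the members were Epas1, Bcam, Lrg1, Tnxb and Cd36 over 16 libraries (r = 0.998 each) and Tbc1d4, Myh7b, Hmha1, Limch1 and Serpina3n over the polyA libraries (r of 0.997 to 0.998). Among 10945 genes whose mean reached 5 CPM, 1861 had an r of at least 0.95 with the members over 16 libraries, so many genes outside the myeloid lists shared the pattern.

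Of 30 other genes of the myeloid lineage 29 were tested, and with TMM scaling 25 rose and 0 fell in polyA RNA, against 19% of all genes that rose, with a median of 1.24 on the log2 scale. With scaling to the cardiac list 9 of all 14897 genes were called higher and 10928 lower, so at most 9 of the rises given here and for the lists that follow could stand under that scaling. The most abundant were Cd74 (the invariant chain of MHC class II, 1.31), Laptm5 (a lysosomal protein of blood cells, 1.22), Siglec1 (sialoadhesin, 1.084), Ctss (cathepsin S, 1.25) and Coro1a (coronin of leukocytes, 1.196). Spi1, named here after its value was seen because it encodes PU.1, rose by 1.15 (SE 0.19, adjusted p = 0.000799). Of the 4 tested genes that were not called, Cd14, the lipopolysaccharide co-receptor, averaged 21.2 CPM in the polyA control and 22.2 CPM in the miR-106b cultures (log2 difference 0.10, adjusted p = 0.705). The others were Cx3cr1 (0.63), Ms4a7 (0.63) and Timd4 (2.07, adjusted p = 0.0504). In Ago2-IP control libraries Cd14 was at 20.4 CPM. Per 1000 counts on these 30 genes the members had 947 to 1108 counts across the 16 libraries. In the ratio 24 of 29 were lower with TMM scaling, against 19.7% of all genes. With scaling to the cardiac list 7 of all 14897 genes were lower in the ratio and 9864 higher, so at most 7 of these calls could stand. In Ago2-IP RNA 0 of the 29 were called.

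Genes of lymphocytes were near the floor. The 18 genes of T, B and NK cells summed to 26 to 62 counts in a library and 13 of them had a mean under 1 CPM. Ptprc itself, the CD45 gene, had 17 to 62 counts in a library, so the counts of the lymphocyte list were of the same order as its own. The T cell receptor subunits Cd3d, Cd3e and Cd3g had means of 0.64, 0.26 and 0.08 CPM over the 16 libraries. Of 6 tested genes 3 were called higher in polyA RNA, Cd4 (2.26), Pax5 (1.60) and Cd79a (1.84), all at under 2 CPM there. Of 16 granulocyte and mast cell genes 12 had a mean under 1 CPM and Ly6g had 0 counts in all libraries. Among the 5 that were tested, Csf3r (1.06), the receptor for G-CSF, and S100a9 (1.67), a calcium-binding protein of neutrophils, rose.

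With TMM scaling the ligands of the CSF1 receptor went the other way from the receptor. With scaling to the cardiac list Csf1r was not called (log2 difference 0.0089), and the median of all genes moved from -0.05 to -1.23. Such scaling moves all genes of a library alike, so it does not by itself close the gap between receptor and ligands. Values of the ligands under it are not given. Csf1, the main ligand, averaged 430.5 CPM in the polyA control and 313 CPM in the miR-106b cultures and fell by 0.43 on the log2 scale (adjusted p = 0.0121), and Il34, named after its value was seen, fell by 1.02 (adjusted p = 0.00177). In Ago2-IP libraries Csf1 averaged 140.4 CPM with the control precursor and 142 CPM with miR-106b. The endocytic receptor Lrp1 fell by 0.38 (adjusted p = 0.0477 in edgeR's test). The complement component C3 rose by 1.23, the C1 inhibitor Serping1 by 1.32 and the surface lectin Cd93 by 1.02. Of the 10 genes in this list 6 rose, 3 fell and Calr was not called, against 2836 higher and 3198 lower of all 14897 genes. The 10 summed to 3102 to 5076 CPM in a library, above the members in all 16.

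With TMM scaling marker genes of other cell types were higher in the same libraries, again against 19% of all genes. Of 11 tested cardiac muscle genes 10 rose, with a median of 1.23, and the most abundant were Myh6 (1.24), Actc1 (1.23), Tnnt2 (1.22), Tnni3 (1.23) and Ttn (1.22). Of 10 endothelial genes 9 rose (median 1.18), among them Cdh5 (1.28), Tie1 (1.21), Kdr (1.25), Pecam1 (1.09) and Vwf (1.14). All 8 fibroblast genes rose (median 1.16), among them Col1a1 (0.56), Col3a1 (1.002) and Col1a2 (1.23). Of 5 tested red cell genes 4 rose, the haemoglobin genes Hbb-bs (1.37), Hba-a1 (1.24), Hba-a2 (1.21) and Hbb-bt (1.55). Of 10 tested mural and smooth muscle genes 6 rose, among them Des (1.22), Rgs5 (1.18), Pdgfrb (0.84) and Notch3 (0.59), and Tagln fell by 0.48. Of 4 tested kidney tubule and podocyte genes 0 rose, and Lrp2 fell by 1.07. In Ago2-IP RNA 0 genes of any of these lists were called.

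**Figure D5:**
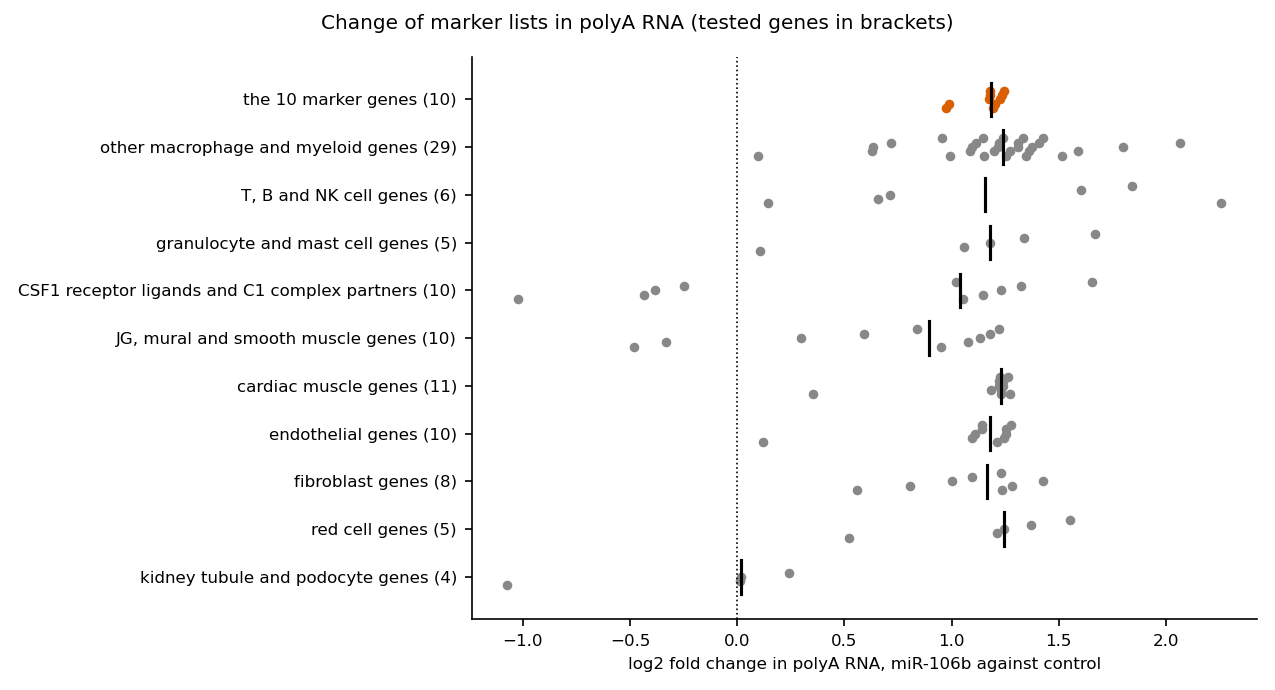
Log2 fold change in polyA RNA, miR-106b against control, of each tested gene in 11 lists, with the 10 marker genes on top, the number of tested genes in brackets and a vertical bar for the median. The medians of the marker, other myeloid, cardiac, endothelial, fibroblast and red cell lists lie between 1.16 and 1.24, while the kidney list is centred at 0.02 and the list of CSF1 receptor ligands and C1 partners splits into genes on both sides of 0. With scaling to the cardiac genes the median of the marker genes is -0.04.

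The cardiac list, Myh6, Actc1 and the rest, was far more abundant than the members, at 16125 to 22899 CPM in polyA control and 70821 to 77772 CPM in Ago2-IP libraries. Per 1000 cardiac counts the members had 20.1 ± 0.83 counts in the polyA control and 19.8 ± 0.36 in the polyA miR-106b libraries (SD, n = 4 each). In Ago2-IP RNA they had 19.9 ± 0.10 with the control precursor and 19.97 ± 0.15 with miR-106b. The lowest library had 19.5 and the highest 21.4, whereas the members' CPM spanned 4.93-fold. When the libraries were scaled to their cardiac counts instead of by TMM, a setting chosen after seeing the data, 0 of 10 members were called in polyA RNA, and their log2 differences lay between -0.28 and 0.02 (median -0.04), while the median of all genes moved to -1.23. Under this scaling the ratio gave 0 calls, and Ago2-IP against polyA RNA gave 1 call in control, Adgre1 at -0.50 (adjusted p = 0.0400), and 0 with miR-106b. The near-constant proportion is that of the summed counts, which the 6 abundant members carry, and single members departed from it, as Adgre1 did. The part of the cardiac RNA in the members' changes was not tested.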

How the data were processed

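PolyA and Ago2-IP RNA of cells labelled as JG cells was sequenced in 16 libraries, 4 for each RNA kind and transfection, with 50-base reads from 1 end that do not keep strand. The authors discarded ribosomal RNA, aligned what was left to GRCm38 with Tophat2 and assigned the reads to genes with HTSeq. The deposited values are raw counts, as whole numbers that were not normalized. Each library was placed in its group by its title, which matched 1 column of the table. No 2 libraries of a group agreed within sampling noise. Chi-square per degree of freedom was 1.69 to 8.7 in polyA control and 6.75 to 29.9 in polyA miR-106b. It was 2.09 to 10.7 in Ago2-IP control and 2.15 to 11.4 in Ago2-IP miR-106b. The study calls the replicates biological, and they are taken as separate cultures.

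Genes reaching 1 CPM in 3 or more replicates of some group were tested, after the filter the authors describe. The set tested here was not the same size as theirs. Counts were scaled by TMM and compared in R 4.3.3 with edgeR 4.0.16 (robust quasi-likelihood F test, two-sided, Benjamini-Hochberg over all tested genes, threshold 0.05, prior count 0.125 for fold changes and 2 for log2 CPM). The polyA and the Ago2-IP libraries were fitted apart, and all 16 libraries together for the ratio and for Ago2-IP against polyA RNA. Printed CPM are scaled to library size only. DESeq2 1.42.0, its size factors, library size alone, TMM within each RNA kind, no filter, 1 fit of all libraries, a replicate block and leaving out each library were alternatives. The tests were also run on simulated counts with known changes in a small set of genes. Those counts held no broad shift between libraries, so they cannot check the choice of scaling. Lengths and 3′UTRs came from GENCODE M21, and the microRNA and promoter sequences from RefSeq (GRCm38.p6). Pandas 2.3.3, scipy 1.17.1 and matplotlib were used for shares, intervals and figures.

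The members and the gene lists were chosen with earlier results of these data known. Named are all 10 members, for each list at most 5 genes past the threshold in polyA RNA with the highest mean CPM, and the 5 genes most correlated with the members over 16 and over 8 libraries. Other genes are marked as named after their values were seen. Where Cd14, Cx3cr1, Ms4a7, Timd4, Calr, Cd3d, Cd3e, Cd3g, Ly6g, Ren1, Acta2, Pax8, Pax2, Cdh16 and Foxd1 appear, they are exceptions or defining markers of their lists.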

Additional observations from a re-analysis of the deposited data

Results flagged for a closer look

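The change with miR-106b differed between Ago2-IP and polyA RNA, by the interaction test in edgeR, for 9 of the 10 genes, all lower, against 19.7% of all genes tested. With scaling to the cardiac list 0 of the 10 were called and 7 turned in sign. The change in Ago2-IP RNA less that in polyA RNA, on the log2 scale, was -1.34 for C1qa, -1.42 for C1qb, -1.39 for C1qc, -1.37 for Lyz2, -1.45 for Cd68, -1.36 for Csf1r, -1.22 for Mrc1, -1.47 for Ptprc and -1.11 for Cd163.

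A library far from the others of its group was looked for in 48 sets of 4 values by Dixon's ratio of the gap to the range against its 95% critical value, and 3 were found. Chance gives about 1 in 20. In Mrc1 the Ago2-IP control replicate 4, at 26.6 CPM, lay below the others at 30.4 to 31.1 CPM (ratio 0.847). For the members' counts per 1000 cardiac counts, polyA miR-106b replicate 3, at 20.3, lay above the others at 19.6 (ratio 0.943), and Ago2-IP miR-106b replicate 1, at 20.2, lay above the others at 19.9 (ratio 0.844).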

How the results depend on the processing

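Of 940 values of single members under the alternatives chosen at the outset, 906 kept their direction and their side of the threshold, 25 crossed the threshold in the same direction and 9 reversed. The 9 were uncalled differences in Ago2-IP RNA: Cd163 without the low-count filter (-0.0031) and in 1 fit of all libraries (-0.0086), Csf1r in that fit (-0.0021), and 6 without 1 library. Without 1 library the difference ran from -0.083 to 0.13 for Cd163, from -0.0078 to 0.049 for Csf1r, from -0.051 to 0.0046 for C1qa and from -0.075 to 0.043 for Lyz2. The 25 were values of Cd163 and Adgre1 in polyA RNA and in the ratio. In polyA RNA 8 to 10 members were called without 1 library and 9 with scaling by library size alone, and in the ratio 8 to 10. The replicate numbers did not pair the libraries (correlations of -0.383 to 0.22 over 24 same-numbered pairs, the own number highest in 3), and a replicate block left 10 calls in polyA RNA, 0 in Ago2-IP RNA, 9 in the ratio, and 10 and 10 for Ago2-IP against polyA RNA. Leaving the low-count filter out gave 20 called genes in Ago2-IP RNA, the replicate block 1 and leaving out 1 library 0 to 40, with 0 members among them.

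The setting that ended the calls was the scaling to cardiac counts, added after seeing the data, which by its construction measures the members against those genes. It left 0 of 10 calls in polyA RNA, 0 in the ratio, 1 in Ago2-IP against polyA control RNA and 0 with miR-106b. In polyA RNA the sign turned for C1qa (-0.055), C1qc (-0.053), Lyz2 (-0.016), Adgre1 (-0.28), Mrc1 (-0.033), Ptprc (-0.045) and Cd163 (-0.26). In the ratio it turned for C1qa (0.065), C1qc (0.021), Lyz2 (0.021), Csf1r (0.041), Mrc1 (0.18), Cd163 (0.30) and Adgre1 (0.67, adjusted p = 0.0618 in edgeR), which was not called under TMM either. In Ago2-IP RNA it turned for C1qa (0.0099) and Lyz2 (0.0046). In Ago2-IP against polyA control RNA it turned for C1qa (-0.040), Cd68 (-0.15), Adgre1 (-0.50), Mrc1 (-0.19) and Cd163 (-0.24), and with miR-106b for C1qb (-0.0025), Cd68 (-0.20) and Mrc1 (-0.014).

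Depth limits Adgre1, Mrc1, Ptprc and Cd163, which had 17 to 128 counts in a library.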
